A study of Mus musculus with 6 samples.

Results

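The comparison set the 4 libraries of E0771 cells given a form of Malt1 against the 2 libraries of E0771 cells given a vector, which takes in all 6 libraries of the series. Its members were every gene with a count, 28063 in all, of which 14675 had enough counts to be tested. E0771 is a mouse mammary carcinoma line. The vector side was the group labelled Vector control (Vector), and the Malt1 side joined 2 libraries of cells expressing wild-type Malt1 (Malt1_WT) with 2 of cells expressing a mutant labelled PD (Malt1_PD), an abbreviation that the labels leave unexplained. All 6 libraries, Vector included, came from cells that had been kept with activated CD8 T cells for 12 hours at 3 effectors per target, then washed, trypsinised, replated and lysed 6 hours after replating. No library without T cells was analysed here, so every value describes cells after that exposure. The labels name neither the promoter of the constructs nor the number of clones or cultures. An effect of added Malt1 therefore cannot be told apart from a difference that the Vector population had from both Malt1 populations for another reason, and the p-values rest on a spread between libraries that may be purely technical.

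MALT1 is the paracaspase of the CARD-BCL10-MALT1 complex, which forms downstream of antigen receptors in lymphocytes and of several G protein-coupled and growth factor receptors in other cells. As a scaffold it recruits TRAF6 and so activates the IKK complex and NF-kB. As a protease it cuts negative regulators such as A20 and CYLD, and the RNA-binding proteins Regnase-1 and Roquin, which destabilise mRNAs of inflammatory genes. A change seen with both forms against Vector is one that the pooled comparison is built to find, and a change seen with 1 form is not.

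The libraries held 14045390 to 19962014 counts, and values are given as CPM, counts scaled to the library size with TMM factors. A gene was called where edgeR's quasi-likelihood test gave, after Benjamini-Hochberg adjustment over the 14675 genes, an adjusted p below 0.05. In brackets after a gene, the log2 fold change of Malt1 over Vector is given with its standard error (SE) and then the adjusted p of that test; mean CPM carry the SD, with n = 2 for Vector and n = 4 for Malt1. In bulk RNA, fewer cells of a kind and less RNA per cell cannot be told apart. The spread between replicates was widest in Vector: over 9594 well-counted genes the SD of the log2 difference between the 2 libraries was 0.29 in Vector, 0.18 in Malt1_WT and 0.14 in Malt1_PD. Vector replicate 1 and Malt1_WT replicate 1 were low on long genes, with 9.67% and 10.9% of their counts in the longest 10% of genes against 12.0% to 12.7% in the other 4 libraries. The median length was 3967 nt for the genes called higher below, 3746 nt for those called lower and 3738 nt for all genes tested.

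The Malt1 libraries held more mRNA of Malt1, of the collagen gene Col1a1, of the smooth muscle actin Acta2, of Igfbp5 and of the CCN family gene Wisp2, and less mRNA of the stromelysins Mmp3 and Mmp10, of the cyclooxygenase Ptgs1, and of the cytokines Il6 and Csf3. In all, 18 genes were called higher in the pooled Malt1 libraries, 0.123% of those tested, and 41 were called lower, 0.279%. Of the 59, 58 were protein coding. The changes were moderate: the median size of the log2 fold change was 0.60 among the genes called higher and 0.54 among those called lower, and 6 and 5 of them reached a 2-fold difference. Without the adjustment, 794 genes were higher (5.41%) and 885 lower (6.03%) at p under 0.05.

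Each of the 59 genes had its 4 Malt1 libraries on 1 side of both Vector libraries. Among all genes tested that was so for 1429 upward (9.74%) and 1590 downward (10.8%), so the separation alone was common. The fold change was below 0 for 7338 of the genes tested and above 0 for 7337. The counts given for gene lists below stand beside these shares, and no list was tested as a set. The nearest Malt1 and Vector libraries differed by at least 1.231-fold in the genes called higher and by at least 1.203-fold in those called lower, and 494 genes in all had a gap of 1.2-fold or more. The last gene inside the threshold was Acap1 (log2 fold change -0.41 ± 0.07, adjusted p = 0.0494). The nearest outside were Spred3 (-0.62 ± 0.11, 0.0501), Glipr2 (-0.37 ± 0.07, 0.0501) and Klf4 (0.47 ± 0.08, 0.0518).

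**Figure D1:**
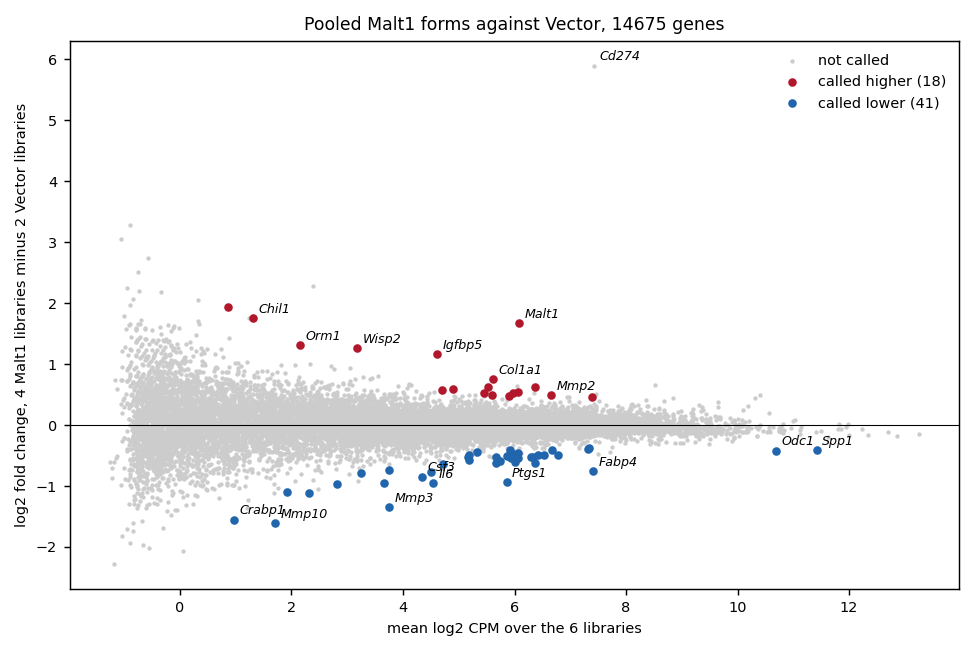
Mean log2 CPM over the 6 libraries (horizontal) against the log2 fold change of the 4 Malt1 libraries over the 2 Vector libraries (vertical) for 14675 genes. Red points are the 18 genes called higher and blue points the 41 called lower, and Cd274, drawn at 5.89, was not called, its Malt1_WT and Malt1_PD libraries lying far apart.

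The number of calls rested on single libraries. It was 0 in both directions with edgeR's quasi-likelihood test without Malt1_PD replicate 2, when the unadjusted p was under 0.05 for 591 genes upward and 659 downward. Without Malt1_WT replicate 1, Malt1_WT replicate 2 or Malt1_PD replicate 1 the number was 4 and 10, 1 and 3, and 1 and 2. With a mean for each of the 3 groups in place of 2 sides it was 2 and 2. Leaving out a Vector library left 1, so the spread within Vector was not estimated. The numbers from those fits stand in the last section only, and nothing is read from them. Malt1, Ptgs1 and Mmp3 were among the calls in each of the fits given here with any call, and Cd274, at 3.42, was the fourth gene of the fit with 3 means. Igfbp5 and Col1a1 missed the threshold with 3 means and without Malt1_WT replicate 2, Malt1_PD replicate 1 or Malt1_PD replicate 2 (adjusted p from 0.0603 to 0.12 for each gene). All 59 genes kept their sign in every one of the 14 alternatives that refitted the counts. They were picked by their p in these same libraries, so a kept sign was largely fixed in advance and gives no support.

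Malt1 itself, the gene introduced in both groups, rose. Its level was 23.8 and 31.3 CPM under Vector, 67.2 and 82.1 CPM in the Malt1_WT pair and 106 and 95.7 CPM in the Malt1_PD pair. No Malt1 library came near the Vector libraries, and the Malt1_PD libraries lay above the Malt1_WT ones. The pooled difference was 1.67 ± 0.18 on the log2 scale, or 3.18-fold (adjusted p = 0.0138), made up of 1.44 ± 0.15 in Malt1_WT and 1.87 ± 0.15 in Malt1_PD. The labels do not say from which species or with which untranslated ends the constructs were made, so reads of the added and the resident gene cannot be told apart. Of 14 tested genes of the CARD-BCL10-MALT1 complex and the kinases and ligases around it, Malt1 alone was called, beside 0.402% of all genes. The median log2 fold change of these 14 genes was 0.04 beside 0.00 for all genes. Bcl10, the adaptor that binds MALT1, stood at -0.18 ± 0.08 with all 4 Malt1 libraries below Vector but an adjusted p of 0.449. Of 12 genes whose proteins MALT1 cuts, none was called at the mRNA level (median -0.01), among them Tnfaip3 (0.09 ± 0.10), Cyld (0.03 ± 0.07) and Zc3h12a, which encodes Regnase-1 (0.10 ± 0.08).

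The 2 stromelysin genes carried some of the largest falls. They lie in the matrix metalloproteinase cluster of mouse chromosome 9, with Mmp1a between them, and their promoters are shown because the 2 genes moved together. The sequences are RefSeq promoters of build GRCm38.p6, running from 250 bases before to 50 after the start of transcription on the plus strand, at chr9:7445572-7445871 for Mmp3 and chr9:7502092-7502391 for Mmp10. Capitals mark matches, on either strand, to the AP-1 letters TGANTCA, the TATA letters TATAAA and the C/EBP letters TTGCNNAA, and none of the matches overlap.
Mmp3: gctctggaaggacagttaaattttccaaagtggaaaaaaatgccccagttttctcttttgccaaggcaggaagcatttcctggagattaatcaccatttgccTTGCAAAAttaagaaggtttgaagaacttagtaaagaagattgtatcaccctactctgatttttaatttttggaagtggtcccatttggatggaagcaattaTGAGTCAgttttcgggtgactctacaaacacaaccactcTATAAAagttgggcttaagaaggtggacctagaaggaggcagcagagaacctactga
Mmp10: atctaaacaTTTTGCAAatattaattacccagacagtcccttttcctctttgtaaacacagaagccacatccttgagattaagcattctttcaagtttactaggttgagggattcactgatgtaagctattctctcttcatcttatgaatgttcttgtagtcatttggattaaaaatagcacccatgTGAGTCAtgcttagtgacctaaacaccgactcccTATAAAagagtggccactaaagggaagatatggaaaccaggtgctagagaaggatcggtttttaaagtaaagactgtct
Each promoter held 1 match to each of these 3 motifs and none to the kappaB motif. The first base of the AP-1 match stood 39 bases before that of the TATA match in Mmp3 and 34 bases before it in Mmp10. Among all 32851 mouse promoters of this length, 7.81% held the AP-1 letters, 13.6% the TATA letters and 10.8% the C/EBP letters. Of 45 promoters listed for 32 of the genes called lower, 7 (15.6%) held AP-1, 11 (24.4%) TATA and 6 (13.3%) C/EBP letters. Those with AP-1 letters belong to 6 genes, since overlapping promoters of Upp1 both held them, and Mmp3, Mmp10 and Il6 are among these genes. The shares were not tested. Of 9 promoters listed for 9 of the genes called higher, 1, 1 and 0 did. A match is a description of the letters and not a bound site.

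Mmp3, stromelysin-1, degrades proteoglycans, laminin and fibronectin and activates collagenases. Its level was 23.9 and 20.6 CPM in Vector, 9.82 and 8.33 CPM for Malt1_WT and 8.48 and 8.50 CPM for Malt1_PD. The 4 Malt1 libraries lay close together, far below both Vector libraries. The fall was -1.34 ± 0.12 on the log2 scale (adjusted p = 0.00367), so that Vector held 2.54 times the Malt1 level. Mmp10, stromelysin-2, which has a similar range of substrates, stood at 5.12 and 6.11 CPM in Vector, 2.35 and 1.79 CPM with the wild-type form and 1.83 and 1.43 CPM with the PD form, again with no overlap. Its log2 fold change was -1.61 ± 0.22 (adjusted p = 0.0226), resting on 91 and 109 counts in Vector and 24 to 36 in the Malt1 libraries.

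Another 3 tested genes of the same cluster also lay lower, on very few counts, and were not called. Mmp13, collagenase-3, had 21 and 25 counts in Vector and 7 to 16 in the Malt1 libraries (-0.87 ± 0.37, adjusted p = 0.403). Mmp12, macrophage elastase, had 12 and 16 counts against 4 to 11 (-0.90 ± 0.46, 0.499), and Mmp1a, an interstitial collagenase, 14 and 11 counts against 1 to 5 (-1.82 ± 0.51, 0.206). In CPM each of the 5 metalloproteinase genes tested within 300 kb of Mmp3 had its 4 Malt1 libraries below both Vector libraries. Mmp8, Mmp1b and Mmp7 in the same window had too few counts to be tested. Mmp8 had 8 and 17 counts in Vector and 1 to 10 in the Malt1 libraries, and Mmp1b 2 and 3 against 0 to 9. The other 4 tested genes that reach into that window, Dync2h1, Dcun1d5, Cbx3-ps8 and Gm10709, had values of 0.14 to 0.40, and none had its libraries separated. Outside the cluster Mmp2, gelatinase A, rose: it was 75.1 and 83.5 CPM in Vector, 105 and 109 CPM in the Malt1_WT pair and 114 and 115 CPM in the Malt1_PD pair (0.48 ± 0.08, adjusted p = 0.0354). In the list of 13 tested metalloproteinases and inhibitors 1 gene was called higher and 2 lower, beside 0.123% and 0.279% of all genes. The list median was -0.17, and Mmp1a was not in the list.

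**Figure D2:**
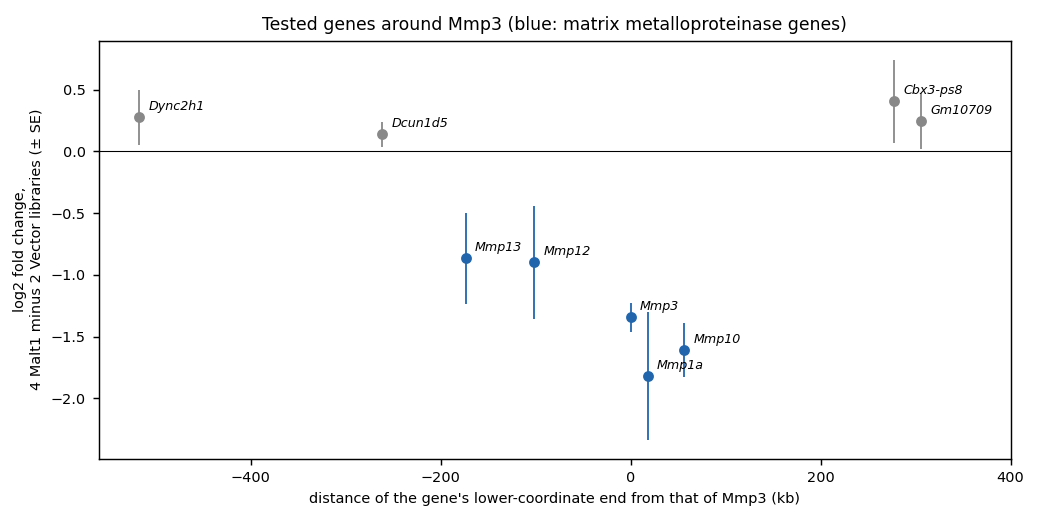
Log2 fold change with its SE (vertical) for the genes tested that reach within 300 kb of Mmp3, by the distance of their lower-coordinate end from that of Mmp3 in kb (horizontal). The 5 metalloproteinase genes, in blue, lie between -0.87 and -1.82, and the 4 other genes, in grey, between 0.14 and 0.40.

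Ptgs1 (chr2:36230426-36252272), the constitutive cyclooxygenase COX-1, which turns arachidonic acid into the precursor of the prostaglandins, had the smallest adjusted p together with Mmp3. It was measured at 86.0 and 84.0 CPM in Vector, 41.9 and 49.96 CPM for Malt1_WT and 41.9 and 43.1 CPM for Malt1_PD. The 2 Vector libraries nearly coincided, and all 4 Malt1 libraries lay far below them, Malt1_WT replicate 2 being the highest. The fall was -0.94 ± 0.08 on the log2 scale (adjusted p = 0.00367), with Vector at 1.92 times the Malt1 level. Pla2g4a, the cytosolic phospholipase A2 that frees arachidonic acid for the cyclooxygenases, fell as well, from 31.1 and 37.4 CPM in Vector to 19.8 and 21.0 CPM with the wild-type form and 24.0 and 22.8 CPM with the PD form (-0.64 ± 0.11, adjusted p = 0.0403). Ptgs2, the inducible cyclooxygenase COX-2, stood at 6.87 and 8.63 CPM in Vector and between 3.48 and 6.53 CPM in the Malt1 libraries, but its spread was wide and it was not called (-0.76 ± 0.25, 0.268). Ptges, the terminal prostaglandin E synthase, was at -0.17 ± 0.07 (adjusted p = 0.4). Of 10 prostaglandin genes tested, 2 were called lower and 5 had all 4 Malt1 libraries below Vector, with a median of -0.08. Among all genes tested 0.279% were called lower and 10.8% had their libraries separated downward.

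Col1a1 (chr11:94936224-94953042), the alpha chain that makes up most of type I collagen, rose. Its libraries read 31.0 and 36.4 CPM in Vector, 54.8 and 61.3 CPM in the Malt1_WT pair and 56.8 and 53.01 CPM in the Malt1_PD pair, with the highest Vector value well under the lowest Malt1 value. The difference was 0.75 ± 0.09 on the log2 scale, or 1.68-fold (adjusted p = 0.0182). Acta2, the smooth muscle actin of myofibroblasts, rose from 35.2 and 32.2 CPM in Vector to 56.2 and 48.0 CPM for Malt1_WT and 51.0 and 52.2 CPM for Malt1_PD (0.62 ± 0.09, adjusted p = 0.0244). Tgfbi, a secreted matrix protein induced by TGF-beta, rose from 132 and 135 CPM to 191 and 199 CPM (Malt1_WT) and 176 and 173 CPM (Malt1_PD; 0.47 ± 0.08, 0.0407).

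Col1a1 was the 1 collagen gene called among 26 tested genes for collagens and their processing. In that list 22 genes had a fold change above 0, 9 had all 4 Malt1 libraries above Vector and 2 all below, and the median was 0.11 beside 0.00 for all genes. Of all 14675 genes tested, 7337 had a fold change above 0, 9.74% were separated upward and 10.8% downward. The type VI chains Col6a1 (0.37 ± 0.07, adjusted p = 0.0703) and Col6a2 (0.40 ± 0.10, 0.143) and the procollagen C-proteinase enhancer Pcolce (0.27 ± 0.06, 0.124) had their 4 Malt1 libraries above Vector without passing. Col1a2, which encodes the partner chain of Col1a1 in the type I trimer, stood at 0.07 ± 0.66 with no separation of the libraries (adjusted p = 0.979), and Col3a1 at 0.01 ± 0.06. Of 20 matricellular and TGF-beta response genes, 2 were called higher and 1 lower, beside 0.123% and 0.279% of all genes. Wisp2, described below, was not in this list. In this list 9 had all 4 Malt1 libraries above Vector and 2 below, and the median was 0.14. The 1 called lower was Spp1, the secreted phosphoprotein osteopontin, at 3445 and 3120 CPM in Vector and 2276 to 2590 CPM in the Malt1 libraries (-0.42 ± 0.06, adjusted p = 0.0351). Dcn, the small proteoglycan decorin, was at 9.85 and 12.5 CPM in Vector and 6.05 to 6.90 CPM with Malt1 (-0.80 ± 0.14), just outside the threshold at 0.0541.

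Igfbp5 (chr1:72857932-72874884) binds insulin-like growth factors in the matrix and modulates their access to the receptor. It stood at 11.5 and 15.4 CPM in Vector, 25.4 and 33.0 CPM with the wild-type form and 30.9 and 30.6 CPM with the PD form, and the groups did not overlap. The rise was 1.16 ± 0.14 on the log2 scale, or 2.23-fold (adjusted p = 0.0182). Its RefSeq promoter, at chr1:72874816-72875115 of GRCm38.p6 on the minus strand, is shown with the kappaB motif in capitals, where 2 overlapping matches run together. The share of all promoters with a kappaB match was 8.46%, and 4 of the 45 promoters of genes called lower (8.89%) and 2 of the 9 of genes called higher had one.
Igfbp5: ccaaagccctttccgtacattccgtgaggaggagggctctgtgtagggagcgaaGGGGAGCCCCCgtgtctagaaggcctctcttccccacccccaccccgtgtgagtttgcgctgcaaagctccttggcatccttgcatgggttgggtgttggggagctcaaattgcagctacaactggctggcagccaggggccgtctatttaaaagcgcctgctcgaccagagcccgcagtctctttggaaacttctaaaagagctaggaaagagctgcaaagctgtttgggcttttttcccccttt
Wisp2, a matricellular protein of the CCN family that is made by fibroblasts, rose from 4.90 and 4.43 CPM in Vector to 10.5 and 9.87 CPM in the Malt1_WT pair and 13.0 and 11.3 CPM in the Malt1_PD pair (1.26 ± 0.16, adjusted p = 0.0182). The family members Ctgf (0.58 ± 0.26, 0.451) and Cyr61 (-0.05 ± 0.11, 0.902) were not called. In the list of 9 tested genes of the insulin-like growth factor axis, Igfbp5 was called, beside 0.123% of all genes called higher. In this list 8 had a fold change above 0, beside 7337 of all 14675 genes, and the median was 0.17. Irs2, the docking protein of the insulin and IGF receptors, was at 5.74 and 6.22 CPM in Vector and 9.18 to 10.97 CPM in the Malt1 libraries (0.76 ± 0.14, adjusted p = 0.0587), and Stc1, an inhibitor of the protease that cleaves IGF-binding proteins, at 0.43 ± 0.13 (0.227). The receptor Igf1r stood at 0.04 ± 0.10.

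**Figure D3:**
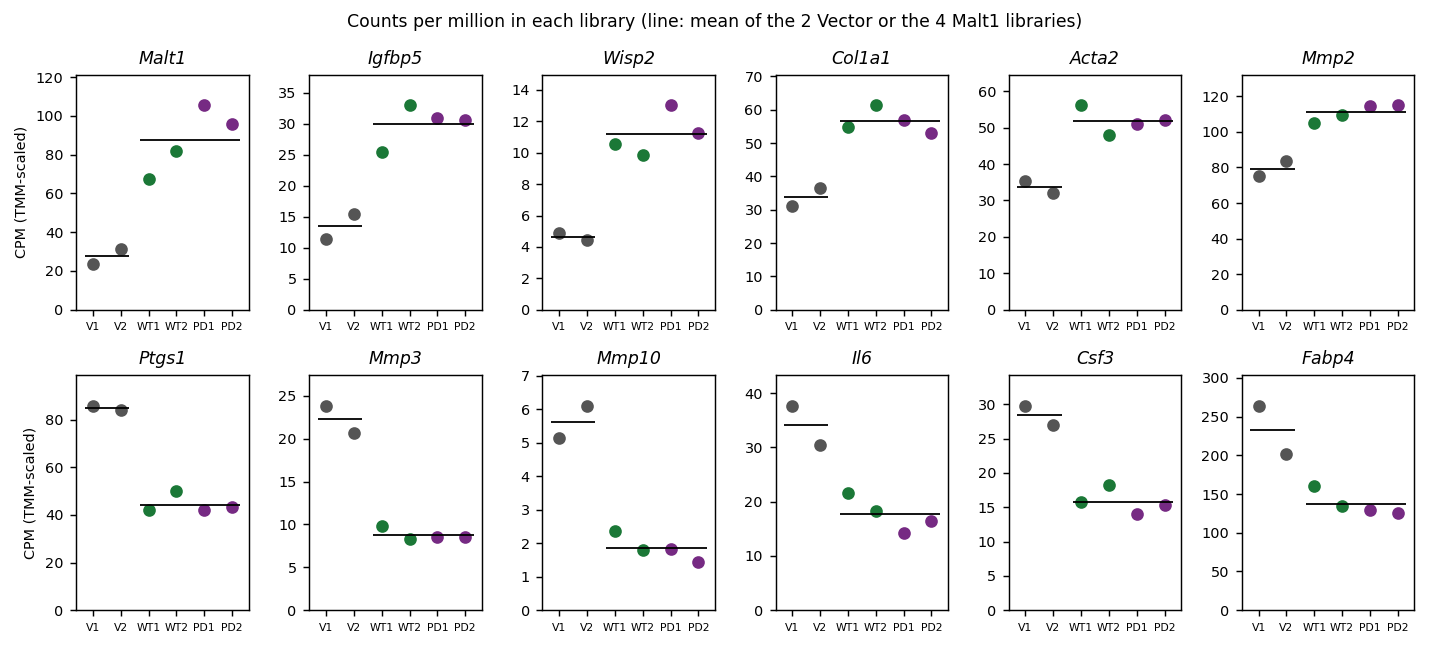
CPM in each library for 6 genes called higher (top) and 6 called lower (bottom), with Vector in grey, Malt1_WT in green and Malt1_PD in purple, and a line at the mean of each side. In every panel the 4 Malt1 libraries lie on 1 side of both Vector libraries, and of these genes Malt1 has the widest log2 difference between the 2 forms.

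Of the cytokine genes, Il6 and Csf3 fell. Il6, the acute-phase cytokine that signals through gp130 and STAT3, is shown by its RefSeq promoter at chr5:30012864-30013163 of GRCm38.p6 on the plus strand, because it holds in 300 bases 1 match each to the AP-1, C/EBP and kappaB motifs, marked in that order in capitals.
Il6: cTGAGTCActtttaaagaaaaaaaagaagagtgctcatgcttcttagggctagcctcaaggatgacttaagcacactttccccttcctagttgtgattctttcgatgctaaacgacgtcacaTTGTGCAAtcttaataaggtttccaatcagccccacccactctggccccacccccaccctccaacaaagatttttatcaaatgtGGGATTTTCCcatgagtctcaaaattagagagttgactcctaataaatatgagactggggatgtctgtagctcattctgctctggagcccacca
Its level was 37.7 and 30.5 CPM in Vector, 21.6 and 18.3 CPM for Malt1_WT and 14.2 and 16.5 CPM for Malt1_PD. All 4 Malt1 libraries were below Vector, the Malt1_PD ones lowest. The fall was -0.95 ± 0.15 on the log2 scale (adjusted p = 0.0351). Csf3, the granulocyte colony-stimulating factor, fell from 29.8 and 27.1 CPM in Vector to 15.7 and 18.2 CPM with the wild-type form and 13.98 and 15.3 CPM with the PD form (-0.84 ± 0.11, adjusted p = 0.021). Cebpd, a C/EBP transcription factor of the acute-phase response, fell by a smaller margin, from 68.9 and 58.0 CPM to 47.1 and 41.1 CPM (Malt1_WT) and 43.6 and 44.4 CPM (Malt1_PD; -0.53 ± 0.09, 0.0403). Il13ra1, a chain of the interleukin-13 receptor, fell from 115 ± 9.37 CPM to 81.5 ± 5.46 CPM on average (-0.49 ± 0.08, 0.0402).

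Of 21 tested cytokines, chemokines and colony-stimulating factors, 2 were called lower and none higher, beside 0.279% and 0.123% of all genes. In this list 9 had all 4 Malt1 libraries below Vector and 2 above, beside 10.8% and 9.74% of all genes, and the median was -0.30. The neutrophil chemokine Cxcl2 was at 12.8 and 13.3 CPM in Vector and 5.54 to 9.51 CPM with Malt1 (-0.92 ± 0.19, adjusted p = 0.0866). Ccl2, which draws monocytes (-0.30 ± 0.09, 0.246), Cxcl10, which draws T cells (-0.40 ± 0.11, 0.213), and Csf2 (-0.54 ± 0.20, 0.332) also had their libraries separated downward without passing. Csf1, the macrophage growth factor, lay on the other side, at 139 and 161 CPM in Vector and 192 to 211 CPM with Malt1 (0.40 ± 0.08, 0.0795). Cxcl1 (-0.07 ± 0.09) and Ccl5 (0.13 ± 0.16) were not separated.

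Genes of the NF-kB pathway lay on both sides of 0, 17 below and 12 above. Of 29 subunits, inhibitors and target genes tested, Il6 was the 1 called, 3 had all 4 Malt1 libraries above Vector and 8 below, and the median was -0.07. Among all genes tested 0.402% were called, 9.74% were separated upward and 10.8% downward. The inhibitor Nfkbia was at -0.16 ± 0.08, the subunits Nfkb1 at 0.01 ± 0.07, Rela at 0.02 ± 0.06 and Relb at -0.08 ± 0.08, and the adhesion gene Icam1 at 0.11 ± 0.11, none called. Complement C3 was at 224 and 308 CPM in Vector and 379 to 437 CPM with Malt1 (0.65 ± 0.12), and its adjusted p of 0.0541 fell just outside the threshold. Among 13 tested mRNAs that Regnase-1 or Roquin are known to destabilise, Il6 and Csf3 were called lower, 8 had all 4 Malt1 libraries below Vector and 1 above, and the median was -0.13. These 2 genes are shared with the cytokine list, so the lists do not count independent genes.

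Among the genes that ERK signalling induces, Dusp6 and Areg fell. Dusp6, the phosphatase that dephosphorylates ERK and is induced by it, fell from 103 and 99.3 CPM in Vector to 78.6 and 72.3 CPM in the Malt1_WT pair and 64.5 and 66.3 CPM in the Malt1_PD pair (-0.52 ± 0.09, adjusted p = 0.0402). Areg, a ligand of the EGF receptor, fell from 73.4 and 64.1 CPM to 51.1 and 45.5 CPM (Malt1_WT) and 45.2 and 41.2 CPM (Malt1_PD; -0.59 ± 0.09, 0.0357). In the list of 23 tested ERK feedback and ETS genes these 2 were called lower and none higher, beside 0.279% and 0.123% of all genes. In this list 19 had a fold change below 0, beside 7338 of all 14675 genes, and the median was -0.18. Its libraries were separated downward for 10 genes and upward for 2, beside 10.8% and 9.74% of all genes. The feedback inhibitors Spred3 (-0.62 ± 0.11, 0.0501) and Spry2 (-0.52 ± 0.11, 0.0946), the EGF receptor ligand Hbegf (-0.49 ± 0.10, 0.0703) and Phlda1 (-0.43 ± 0.08, 0.0703) had their libraries separated downward and did not pass. Etv4 (-0.14 ± 0.07), Etv5 (-0.16 ± 0.10), Myc (0.03 ± 0.06) and Ccnd1 (-0.03 ± 0.07) were nearer to 0. Of 21 AP-1 and immediate early genes none was called, 5 had all 4 Malt1 libraries below Vector and 3 above, and the median was -0.13. Fos (-0.09 ± 0.20), Jun (-0.07 ± 0.08) and Fosl1 (0.12 ± 0.07) did not pass, and neither did Klf4, a transcription factor of epithelial and smooth muscle cells, at 25.7 and 27.2 CPM in Vector and 34.8 to 38.8 CPM with Malt1 (0.47 ± 0.08, 0.0518).

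Of the genes that interferon induces, Cmpk2 rose and Ifi205 fell. Cmpk2, a mitochondrial nucleotide kinase induced by interferon, rose from 49.3 and 44.6 CPM in Vector to 63.9 and 71.3 CPM for Malt1_WT and 62.2 and 65.1 CPM for Malt1_PD (0.48 ± 0.08, adjusted p = 0.0438). Ifi205, an interferon-inducible gene of the Ifi200 family of DNA sensors, fell from 7.43 and 7.56 CPM to 3.20 and 3.59 CPM (Malt1_WT) and 4.17 and 2.85 CPM (Malt1_PD; -1.11 ± 0.18, 0.0365). Of 31 type I interferon-stimulated genes, Cmpk2 was the 1 called, and 23 had a fold change below 0, with 8 separated downward, 2 upward and a median of -0.15. Of all 14675 genes tested, 0.402% were called, 7338 had a fold change below 0, 10.8% were separated downward and 9.74% upward. Rtp4 (-0.40 ± 0.10, 0.132), Oas3 (-0.37 ± 0.09, 0.135) and Mx2 (-0.56 ± 0.20, 0.325) were among the lower ones, and Isg15 was at 0.03 ± 0.12. None of 22 interferon-gamma response genes and none of 16 genes of MHC class I presentation was called, with medians of -0.04 and -0.07. H2-K1 was at -0.13 ± 0.09, B2m at -0.15 ± 0.07 and Tap1 at -0.06 ± 0.08.

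Cd274, which encodes the checkpoint ligand PD-L1, shows what the pooled comparison leaves out. It was 4.22 and 4.37 CPM in Vector, 469 and 545 CPM with the wild-type form and 4.87 and 3.57 CPM with the PD form. The Malt1_WT libraries stood far above the other 4, and the Malt1_PD libraries lay on either side of Vector. Whether the Malt1_WT population carried another change than its construct is not said in the labels, so an effect of wild-type Malt1 on Cd274 cannot be told apart from a difference between populations. The pooled log2 fold change was 5.89 ± 2.03, the largest of any gene tested, with an adjusted p of 0.302. Cd274 was the 1 gene of 14675 (0.00681%) called between the forms (Malt1_WT minus Malt1_PD 6.91 ± 0.16, adjusted p = 1.28e-06 by edgeR's quasi-likelihood test). The other checkpoint ligands were not called, among them Cd47 (-0.26 ± 0.07), Nectin2 (-0.24 ± 0.06) and Cd276 (0.20 ± 0.09).

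Of the 59 called genes, 41 are in none of the lists used here, and those not yet described are given by what they do. Secreted and matrix-associated products among the genes called higher were Olfml3, a secreted olfactomedin-domain protein, from 51.5 ± 4.23 to 74.6 ± 2.88 CPM (0.53 ± 0.08), and the sulfatase Arsi, from 37.9 ± 2.04 to 53.1 ± 2.07 CPM (0.49 ± 0.08). Chil1, the chitinase-like glycoprotein YKL-40, was low in all libraries, at 1.01 and 0.840 CPM in Vector and 2.59 to 4.05 CPM with Malt1 (1.75 ± 0.30, adjusted p = 0.0451). Orm1, an acute-phase plasma glycoprotein, stood at 2.20 and 2.19 CPM in Vector and 4.84 to 6.52 CPM with Malt1 (1.31 ± 0.21, 0.0357). Efnb1, a membrane ligand of Eph receptors, rose from 48.4 ± 2.81 to 69.5 ± 4.45 CPM (0.52 ± 0.08), and Cacna1a, the pore subunit of a neuronal calcium channel, from 19.6 ± 0.544 to 29.1 ± 1.07 CPM (0.57 ± 0.09).

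Piwil2, a PIWI protein of the germ line that binds piRNAs, was at 57.6 and 63.8 CPM in Vector, 93.6 and 101 CPM in the Malt1_WT pair and 89.8 and 90.6 CPM in the Malt1_PD pair (0.63 ± 0.08, adjusted p = 0.0182). Tex19.1, a germ cell and placental gene, rose from 34.1 ± 3.10 to 48.9 ± 3.23 CPM (0.52 ± 0.09, 0.0471). Dppa4, a chromatin protein of pluripotent cells, fell from 74.5 ± 5.10 to 54.3 ± 2.85 CPM (-0.46 ± 0.08, 0.0407), and Hmga2, an embryonic architectural factor, from 189 ± 8.88 to 144 ± 3.41 CPM (-0.39 ± 0.07, 0.0403). The last of the 18 genes called higher were the uncharacterised 2700081O15Rik (0.59 ± 0.09) and Gm8995 (1.93 ± 0.32). Gm8995 is annotated as a transcribed unprocessed pseudogene and had 0.619 and 0.560 CPM in Vector and 1.78 to 2.53 CPM with Malt1. Its fold change was the largest among the called genes, but it rests on 11 and 10 counts in Vector.

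Fabp4, the fatty acid carrier of adipocytes and macrophages, was 264 and 202 CPM in Vector, 161 and 134 CPM for Malt1_WT and 130 and 126 CPM for Malt1_PD. The 2 Vector libraries differed from each other, yet the lower of them was above every Malt1 library (-0.76 ± 0.12, adjusted p = 0.0357). Fabp4 was the 1 gene called of 15 for lipid uptake and storage, beside 0.279% of all genes called lower. In this list 2 were separated upward and 5 downward, beside 9.74% and 10.8% of all genes, and the median was -0.09. Apobr, a receptor for lipoproteins that carry apolipoprotein B, fell from 46.6 ± 1.83 to 31.3 ± 0.593 CPM (-0.58 ± 0.07), and Osbp2, an oxysterol-binding protein, from 98.0 ± 3.95 to 68.1 ± 0.683 CPM (-0.52 ± 0.06). Crabp1, a retinoic acid carrier, was at 3.32 and 3.14 CPM in Vector and 0.822 to 1.42 CPM with Malt1 (-1.55 ± 0.26, adjusted p = 0.0417). Odc1, the first enzyme of polyamine synthesis, fell from 1985 ± 150 to 1480 ± 56.2 CPM (-0.42 ± 0.06), Upp1, a uridine phosphorylase, from 107 ± 9.07 to 69.5 ± 4.39 CPM (-0.63 ± 0.08), and Akr1b8, an aldo-keto reductase, from 82.8 ± 6.96 to 57.2 ± 2.92 CPM (-0.53 ± 0.08).

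Gdf15, a stress-induced cytokine of the TGF-beta family that p53 and the integrated stress response both raise, fell from 18.9 and 17.3 CPM in Vector to 11.2 and 10.8 CPM with the wild-type form and 11.6 and 9.69 CPM with the PD form (-0.74 ± 0.11, adjusted p = 0.0337). It was the 1 gene called of 17 p53 targets, beside 0.279% of all genes called lower. Cdkn1a (0.01 ± 0.10) and Mdm2 (-0.07 ± 0.07) stayed close to 0. Txnip, the thioredoxin-interacting protein that restrains glucose uptake, fell from 72.3 ± 4.93 to 50.9 ± 1.62 CPM (-0.50 ± 0.07). None of 23 stress response genes, of the unfolded protein and integrated branches, was called (median -0.09). In this list 20 had a fold change below 0, beside 7338 of all 14675 genes. All 4 Malt1 libraries were below Vector for 9 of them, beside 10.8% of all genes. Hspa5, the chaperone BiP, was at -0.22 ± 0.06 and Ddit3, the factor CHOP, at -0.43 ± 0.13.

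Slc9a3r1, the scaffold NHERF1, fell from 83.9 ± 4.94 to 54.9 ± 1.79 CPM (-0.61 ± 0.07, adjusted p = 0.0182), and Slc9a2, a sodium-proton exchanger, from 28.6 and 33.0 CPM in Vector to 21.3 and 19.8 CPM in the Malt1_WT pair and 15.8 and 15.8 CPM in the Malt1_PD pair (-0.76 ± 0.13, 0.0471). Itga7, a laminin-binding integrin chain, had a log2 fold change of -0.54 ± 0.08, and Tes, a focal adhesion protein, of -0.38 ± 0.06. Misp, an actin-binding protein of the mitotic spindle, was 5.69 and 5.602 CPM in Vector and 2.28 to 2.99 CPM with Malt1 (-1.10 ± 0.18), and Arhgap6, a GTPase-activating protein, 18.9 and 17.9 CPM and 7.34 to 10.8 CPM (-0.95 ± 0.15). Csgalnact1, which starts the chains of chondroitin sulfate, was 10.4 and 9.86 CPM in Vector and 4.43 to 6.24 CPM with Malt1 (-0.96 ± 0.17, adjusted p = 0.0438), and Lilr4b, a receptor of the leukocyte immunoglobulin-like family, 11.8 and 14.3 CPM and 6.98 to 7.90 CPM (-0.79 ± 0.13, 0.0403). The other genes called lower were Olfm1, Prph, Sh3bgrl2, Tmx4, Sema4c, Lbh, Ube2q2, Ypel5, Tars2 and Acap1, with log2 fold changes from -0.63 to -0.41. Lilr4b, Ifi205, Orm1, Tex19.1 and Akr1b8 have close relatives in the genome whose reads the counting could split, so their values are less certain.

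Each form's values for these genes are set side by side. Both comparisons use the same 2 Vector libraries, so any likeness between them is not independent support. None of the 59 genes was called between Malt1_WT and Malt1_PD, and the values of the forms differed by less than 25% in 17 of the 18 genes called higher and 37 of the 41 called lower. That was so for 12581 of all 14675 genes, and a pooled test favours genes on which the forms are alike, so nothing is read from these counts. The exceptions were Malt1 (Malt1_WT minus Malt1_PD -0.43 ± 0.14) upward and Mmp10 (0.33 ± 0.30), Il6 (0.37 ± 0.15), Slc9a2 (0.38 ± 0.12) and Crabp1 (0.47 ± 0.34) downward, each with an adjusted p of 1 for that difference. For Il6 the single-form values were -0.78 ± 0.15 in Malt1_WT and -1.15 ± 0.15 in Malt1_PD. For Ptgs1 they were -0.88 ± 0.10 and -0.999 ± 0.10, for Igfbp5 1.12 ± 0.17 and 1.19 ± 0.17, and for Col1a1 0.79 ± 0.11 and 0.70 ± 0.11. In the fit with a mean for each of the 3 groups, each form had 1 gene called against Vector (0.00681% each). These were Cd274 for Malt1_WT and Malt1 for Malt1_PD. Each group had 2 libraries, and the spread was shared over all 6. A difference between the forms that misses the threshold does not show that they act alike.

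**Figure D4:**
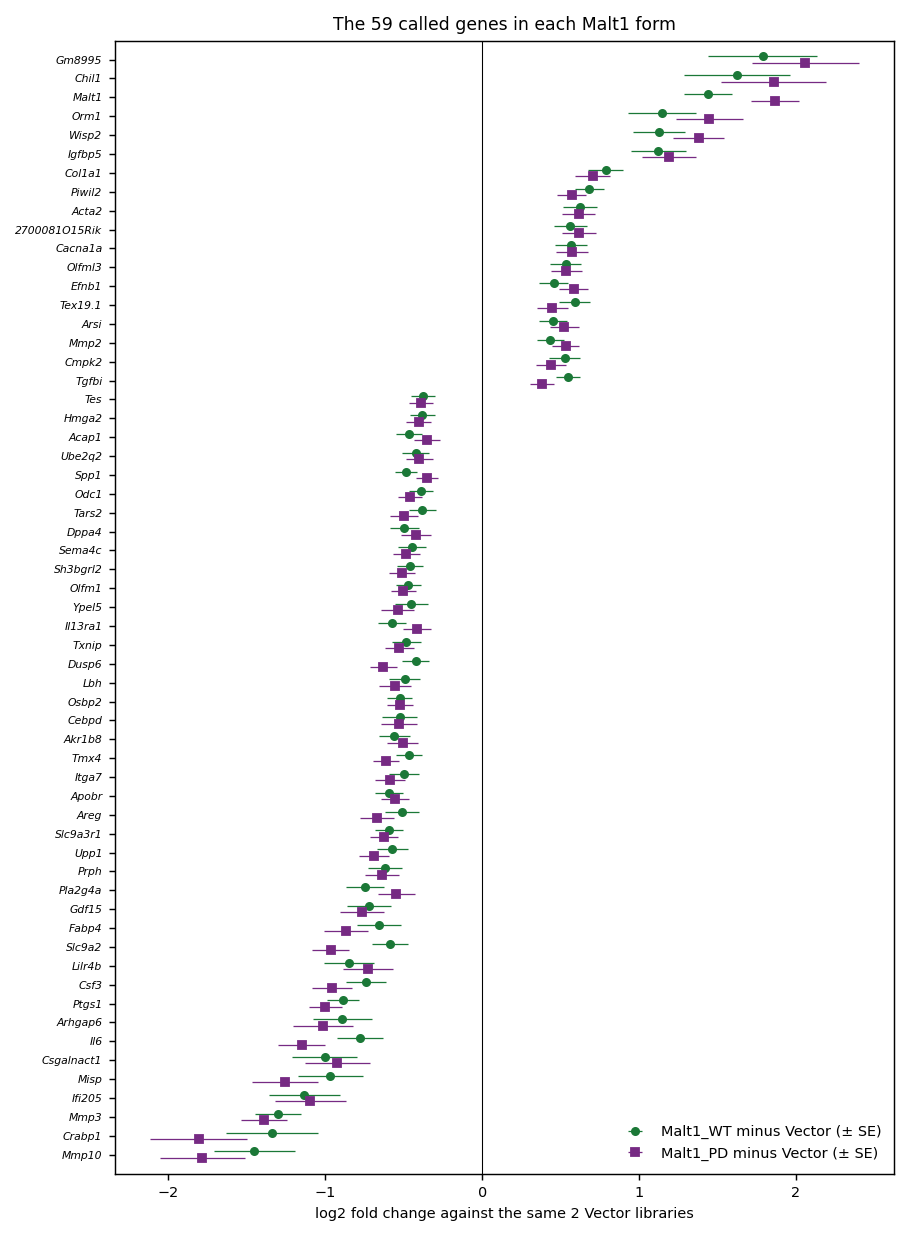
Log2 fold change with its SE against the same 2 Vector libraries for Malt1_WT (green circles) and Malt1_PD (purple squares), for each of the 59 called genes ordered by the pooled value. The markers of the 2 forms lie on the same side of 0 in every row, and Malt1, Slc9a2, Il6 and Crabp1 have the widest steps between them.

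In the groups that follow no gene was called. None of 28 apoptosis and death receptor genes was called (median 0.00, with 4 separated upward and 4 downward), with Fas at 0.14 ± 0.07, Casp8 at -0.11 ± 0.10 and Ripk3, the necroptosis kinase, at 0.39 ± 0.08 (adjusted p = 0.0823). None of 26 proliferation genes was called (median -0.01), with Mki67 at 0.07 ± 0.24. None of 23 cholesterol synthesis genes was called (median -0.07). In that list 19 lay below 0, beside 7338 of all 14675 genes, and 7 had all 4 Malt1 libraries below Vector, beside 10.8% of all genes. The median was 0.02 both over 26 genes of hypoxia and glycolysis and over 19 NRF2 targets, with no call in either. In the hypoxia and glycolysis list 8 genes had all 4 Malt1 libraries above Vector, among them Egln1 (0.19 ± 0.07) and Adm (0.21 ± 0.09), and 2 below, and in the NRF2 list 2 were above and 2 below, beside 9.74% and 10.8% of all genes. Of the NRF2 targets Ephx1, an epoxide hydrolase, came nearest at 0.42 ± 0.08 (adjusted p = 0.0646). No call fell on the 13 mRNAs of the mitochondrial genome, whose median was 0.08. Over all lists, 462 of 580 distinct genes were tested, and 7 were called higher and 11 lower, beside 0.402% of all genes called. The lists were chosen with earlier results of these data known, so nothing is read from that difference.

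**Figure D5:**
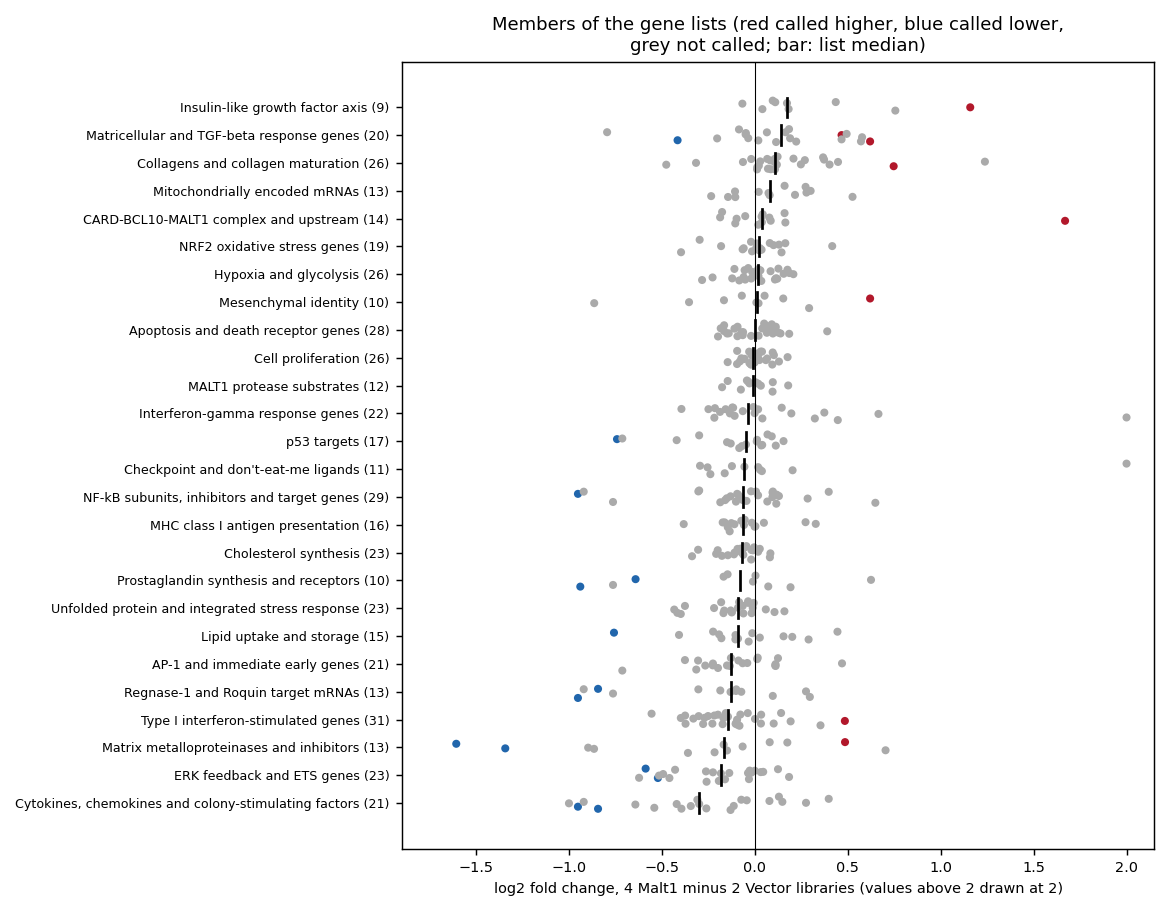
Log2 fold change of the 4 Malt1 libraries over the 2 Vector libraries for each tested member of 26 gene lists, ordered by list median (black bar), with the number tested in brackets. Values run from about -1.61 for Mmp10 to 1.67 for Malt1, apart from Cd274, which is drawn at the limit of 2.

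Markers of other cells were scarce. Their sums are given in CPM of the raw library totals, without TMM factors. The 11 listed T cell markers with a row in the table summed to 22 to 45 counts per library, 2.40 and 2.45 CPM in Vector and 1.57 to 2.33 CPM in the Malt1 libraries, with 4 to 6 of them at 0 in each library and Cd8a at 1 count in all 6 together. Lck made up most of these counts. The 7 myeloid markers summed to 19.7 and 22.8 CPM in Vector and 15.6 to 18.6 CPM in the Malt1 libraries, carried by Cd14, Cd68 and Lyz2, while the defining markers Adgre1, Itgam and Csf1r had at most 9 counts in a library. This sum moved in the same direction as Fabp4 and Lilr4b, and its part in their values was not tested. The 4 B cell markers summed to 18.4 and 27.5 CPM in Vector and 21.0 to 23.8 CPM with Malt1, nearly all of it Pax5.

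Several defining epithelial markers were near 0 in every library. Krt8 had 1742 to 2204 counts and Epcam 110 to 134, but Krt18 had 4 to 12, Cdh1 2 to 8 and Krt19 3 to 6. Of the mesenchymal markers, Vim had 58651 to 82518 counts, Twist1 1754 to 2484 and Fn1 1 to 3. Of 4 tested epithelial genes none was called, and 1 was separated upward, beside 9.74% of all genes. It was Krt14, a basal keratin, with 6 and 1 counts in Vector and 8 to 23 in the Malt1 libraries (2.18 ± 0.67, adjusted p = 0.246). Of 10 tested mesenchymal genes Acta2 was the 1 called, beside 0.123% of all genes called higher. In this list 2 were separated upward and 3 downward, beside 9.74% and 10.8% of all genes. The lowest value was that of Snai2, the factor Slug, with 61 and 88 counts in Vector and 22 to 52 with Malt1 (-0.87 ± 0.29, 0.291), while Vim was at -0.17 ± 0.06 and Twist1 at 0.01 ± 0.08.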

How the data were processed

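Total RNA of 6 libraries was sequenced as directional libraries with paired reads of 150 bases, per the labels' protocols. The authors deposited raw counts per gene, together with a gene length in nucleotides, whose values served only to describe length. The submitters' processing notes list Trim Galore 0.6.0, STAR 2.7.3a, featureCounts 1.6.3 and build GRCm38.p6. Whether strand was used in counting, and which annotation, is not given in the sources used here, and overlapping genes on the 2 strands are therefore less certain. Another 6 columns of log2 RPKM were not used. Gene coordinates come from GENCODE M21, whose identifiers matched 28056 of 28063 genes, and 25 symbols that a spreadsheet had turned into dates were restored.

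Counts were filtered with filterByExpr and modelled by quasi-likelihood in edgeR 4.0.16 (R 4.3.3; glmQLFit, glmQLFTest, TMM scaling) with 2 sides and no covariate, which left 4 residual degrees of freedom, a common dispersion of 0.00887 and a coefficient of variation of 9.42%. SEs of log2 fold changes come from the quasi-likelihood F. The forms were compared in a fit with a mean for each of the 3 groups. The pipeline was run on simulated data with known fold changes. The simulation used the common dispersion for every gene, without a length trend or a difference between the forms. It therefore does not measure the error rate in these libraries. At these depths 3 counts, taken as a floor, equal 0.150 to 0.214 CPM, for counting error only. Replicates of each group differed by more than sampling noise (chi-square per degree of freedom 21.6 in Vector, 7.37 in Malt1_WT and 6.70 in Malt1_PD).

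Named in full were Malt1, Ptgs1, Mmp3, Igfbp5 and Col1a1, then up to 12 genes per direction with the largest fold change among called genes with a mean log2 CPM of at least 1, no predicted symbol and separated libraries, then the members with the smallest p in each of 30 lists, at most 4 a list. Other genes were named to complete the set of called genes or because of their known role, after their values were seen. Members and lists were chosen with earlier results of these data known. Alternatives were another scaling, no filter, DESeq2 1.42.0, limma 3.58.1 (voom), 3 group means, the replicate block, removal of the length trend, a fold or gap minimum, and leaving out libraries.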

Additional observations from a re-analysis of the deposited data

Results flagged for a closer look

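For 24 named genes the 4 Malt1 libraries were checked for a single library far from the other 3, and 2 genes had one, where chance alone is expected in about 1 gene in 20. In Ptgs1 the library of Malt1_WT replicate 2 was high, and its gap to the next library was 0.848 of the range of the 4. In Mmp3 the library of Malt1_WT replicate 1 was high, with a gap of 0.886 of the range. Both lie above Dixon's critical value for 4 samples, and in both genes the high library was still below both Vector libraries. Without that library the gene's direction did not change. For Cd274 the difference between the forms was itself past the threshold, at 6.91 on the log2 scale (Malt1_WT minus Malt1_PD, adjusted p = 1.28e-06 by edgeR's quasi-likelihood test), so its pooled value describes neither form.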

How the results depend on the processing

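The counts of called genes moved more than their directions did. Against 18 genes called higher and 41 lower, DESeq2's size factors gave 18 and 38 and limma-voom 16 and 39. No low-count filter gave 42 and 63, DESeq2's Wald test 69 and 96, removal of the gene length trend 132 and 181, a mean for each of the 3 groups 2 and 2, and a fold minimum of 2 left 6 and 5. Leaving out 1 library at a time gave 0 to 1004 higher and 0 to 583 lower. Leaving out both libraries low on long genes, chosen after seeing the data, gave 315 and 380. The replicate block gave 71 and 103, but the numbers were not taken to pair the libraries, since same-numbered deviations correlated at 0.68 between Vector and Malt1_WT, -0.01 between Vector and Malt1_PD and 0.03 between the forms. The cause of these shifts was not tested. The fits without a Vector library, and the fit without both libraries low on long genes, kept 1 Vector library. The spread within Vector was not estimated in them, so nothing is read from their counts. The largest counts with 1 library left out are among these. The 1429 genes with all 4 Malt1 libraries above Vector became 257 with a gap of 1.2-fold, 1801 to 4557 without 1 library and 4819 without both, and the 1590 below became 235, 1944 to 4586 and 4868. For the 24 named genes 105 values missed the threshold over the 14 alternatives, and none changed sign. These genes were picked by their values in the same libraries, so a kept sign was largely fixed in advance. Without Malt1_PD replicate 2, Malt1, Ptgs1 and Mmp3 missed the threshold too. Their adjusted p by edgeR's quasi-likelihood test was then 0.0856, 0.0546 and 0.0546. With 2 Vector libraries, genes of small change or few counts could not be resolved.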
